A study of Homo sapiens with 4 samples.

Results

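The genes described here are 38 listed targets of hypoxia or of the hypoxia-inducible factors (HIF) that do not encode enzymes of glucose breakdown, read in HCT116, a human cell line established from a colon carcinoma. Rows were matched to the list by symbol alone, as those whose Ensembl identifier carries a listed symbol. The list itself was chosen with earlier results of these data known. Of the 38 symbols, 37 matched a row of the 20263-gene table and DDIT3L matched none. All 37 matched genes passed edgeR's filter on low counts, as did 14105 genes in all. Cells grown in medium with serum received DMSO, the usual solvent, or the compound N_12, and the labels give 24 h for the treatment. Each group held 2 mRNA libraries. The sample titles name the compound N_12 while the treatment tag of the same samples carries the code HJJ_3_5, and no dose is given in the labels. The series title describes N_12 as derived from nilotinib, and the labels mention no exposure to low oxygen. HCT116 is a single cell line, and nothing in the labels says whether replicates were separate cultures, so p-values measure only the spread between these libraries, which may be technical.

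HIF is a pair of proteins, an alpha subunit such as HIF1A or EPAS1 and a beta subunit, ARNT. With oxygen present, prolyl hydroxylases of the EGLN family mark the alpha subunit, the VHL complex captures it and it is degraded. When the alpha subunit persists, the pair binds hypoxia response elements, whose core reads ACGTG or GCGTG, and raises transcription of genes for vessel growth, collagen folding, pH control, lipid storage and mitochondrial removal as well as for glycolysis. Tumour cells of the colon are known to express many of these genes, carbonic anhydrase IX and VEGFA among them.

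Total counts lay between 29769568 and 41717938 per library. The labelled cell type was checked against markers. Of 10 colon epithelial markers, 6 were above 1 CPM (read counts scaled to library totals adjusted by the trimmed mean of M values, TMM) in every library and their sum lay between 4075 and 4608 CPM in DMSO and between 3351 and 3694 CPM in N_12. The differentiation markers VIL1, CDH17, LGALS4 and PHGR1 were near 0. Fibroblast markers summed to 55.5 to 64.9 CPM over both groups, nearly all of it COL1A1, leukocyte markers to 34.9 to 48.7 CPM, nearly all of it CD68, and endothelial markers to 0.878 to 2.45 CPM. COL1A2, DCN, LUM, PTPRC and CD3E were at 0 in every library. KRT8 (log2 fold change -0.36) and KRT19 (-0.32) carried most of the lower epithelial sum. CDH1 (-0.52) and EPCAM (-0.42) were lower too, while KRT18 had a log2 fold change of 0.01 and CDX2 of 0.62. None of these 6 was called. The part of these markers in the results below was not tested.

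Promoter sequences show where the letters of the response element lie in these genes. RefSeq's promoter table for GRCh38.p14, which runs from 250 bases before to 50 bases after each start, had an entry for 28 of the 37 genes. HILPDA, JMJD6, LOXL2, NDRG1, RAB20, RSBN1, SPAG4, VEGFA and ZNF395 had no entry. Stretches of 30 bases follow, 5′ to 3′ on the gene's strand. First come the 8 genes called lower in N_12 that have a single listed start with a match before it. Then come 3 genes that were not called (KDM4B, WSB1 and STC2), which were picked with their matches and values in view. Capitals mark ACGTG or GCGTG, or their reverse complements CACGT and CACGC. Positions count back from the start.
ANKRD37, chr4:185396676-185396705, plus strand, from position -165 to -136: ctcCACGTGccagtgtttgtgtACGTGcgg
CA9, chr9:35673897-35673926, plus strand, from position -31 to -2: ctcgtttccaatgCACGTacagcccgtaca
ADM, chr11:10304959-10304988, plus strand, from position -114 to -85: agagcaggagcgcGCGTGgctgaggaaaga
ANGPTL4, chr19:8363908-8363937, plus strand, from position -247 to -218: gggaaagaagagtCACGTctcccacggttc
FAM162A, chr3:122384086-122384115, plus strand, from position -96 to -67: cagcGCGTGgcgCACGTcctaCACGCcccg
P4HA1, chr10:73096936-73096965, minus strand, from position -99 to -70: gtgtgatcgagctCACGTagcgagggctgc
PLOD2, chr3:146161374-146161403, minus strand, from position -219 to -190: agcgctGCGTGagcctccaCACGTagccgc
TMEM158, chr3:45226471-45226500, minus strand, from position -213 to -184: ccccgcccgcccgCACGCaccccgggcgat
KDM4B, chr19:4968868-4968897, plus strand, from position -245 to -216: cgggCACGTGggtgggcgccgGCGTGtccc
WSB1, chr17:27294044-27294073, plus strand, from position -70 to -41: gggctgtgacgtCACGTGgccgcgcccctg
STC2, chr5:173328626-173328655, minus strand, from position -241 to -212: catacaCACGCACGCaaacGCGTGgccgcc

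In GENCODE release 29 the stretches of ANKRD37, CA9, ADM, P4HA1 and STC2 lie wholly on annotated exon bases of the gene's own longer transcripts, that of CA9 also on exon bases of ARHGEF39 on the opposite strand, and the other 6 lie on no exon. ANKRD37 and FAM162A, both called lower, each hold 3 overlapping or neighbouring matches in the stretch. KDM4B and STC2, which were not called, each hold 3 as well. Over the full windows and both strands, 26 of the 28 genes (92.9%) had ACGTG or GCGTG in at least 1 listed promoter. The same held for 52.4% of the 27305 genes in the table and for 48.4% of its 35116 promoters. ACGTG alone was present for 18 of the 28 genes, against 24.9% of all genes, and CACGTG, which contains ACGTG, for 8 of 28, against 8.77%. The share was not compared with promoters of equal base composition, and a match of 5 letters is not a bound site. P4HA2 and TMEM45A had no match in their windows. Over all 18 genes with ACGTG the median log2 fold change was -0.73, and 7 of them were called lower in N_12. Over all 8 with GCGTG only the median was -0.63, and 2 were called lower. The 2 with neither were both called lower (-0.72 for P4HA2 and -1.52 for TMEM45A). Genes called lower and genes not called were thus found both with ACGTG and with GCGTG only.

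The comparison of N_12 with DMSO asks which transcripts differ after the treatment. Of the 37 tested genes, 13 were called lower in N_12 (35.1%) and 0 higher, by edgeR's quasi-likelihood test with a threshold of 0.05 on p-values adjusted over all 14105 genes by the Benjamini-Hochberg method. In bulk RNA, fewer cells that express a gene and less of its RNA per cell cannot be told apart. Of all tested genes 1.43% were called lower and 0.822% higher. The median log2 fold change of the 37 was -0.70, against 0.01 over all tested genes. Of the 37, 36 lay below 0, STC2 being the exception, where 6915 of all 14105 tested genes lay below 0. At an unadjusted p under 0.05, 25 of the 37 were lower and 0 higher, where 10.8% of all tested genes were lower and 11% higher. In 30 of the 37 the higher N_12 library was still below the lower DMSO library, which was so for 26.8% of all tested genes. The size of the change was uneven: 5 genes were lower by more than 4-fold and 12 by more than 2-fold, while FAM13A had a log2 fold change of -0.02 (95% interval -0.59 to 0.55). How many of all tested genes passed these folds was not counted. The count of 13 became 11 without DMSO replicate 1, where P4HA2, PAM and TMEM158 lost the call and KDM3A gained it, and 12 without DMSO replicate 2, where P4HA2 and PAM lost it and PPFIA4 gained it. Without N_12 replicate 1 or without N_12 replicate 2, edgeR lost its calls over the whole table, the 37 included. The median log2 fold change of the 37 was then -0.73 and -0.69, in that order. Each set of 3 libraries takes its spread from 1 pair and assumes that the lone library varies alike. On the sets without 1 N_12 library the calls were lost over the whole table with limma-voom too, but not with DESeq2.

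**Figure D1:**
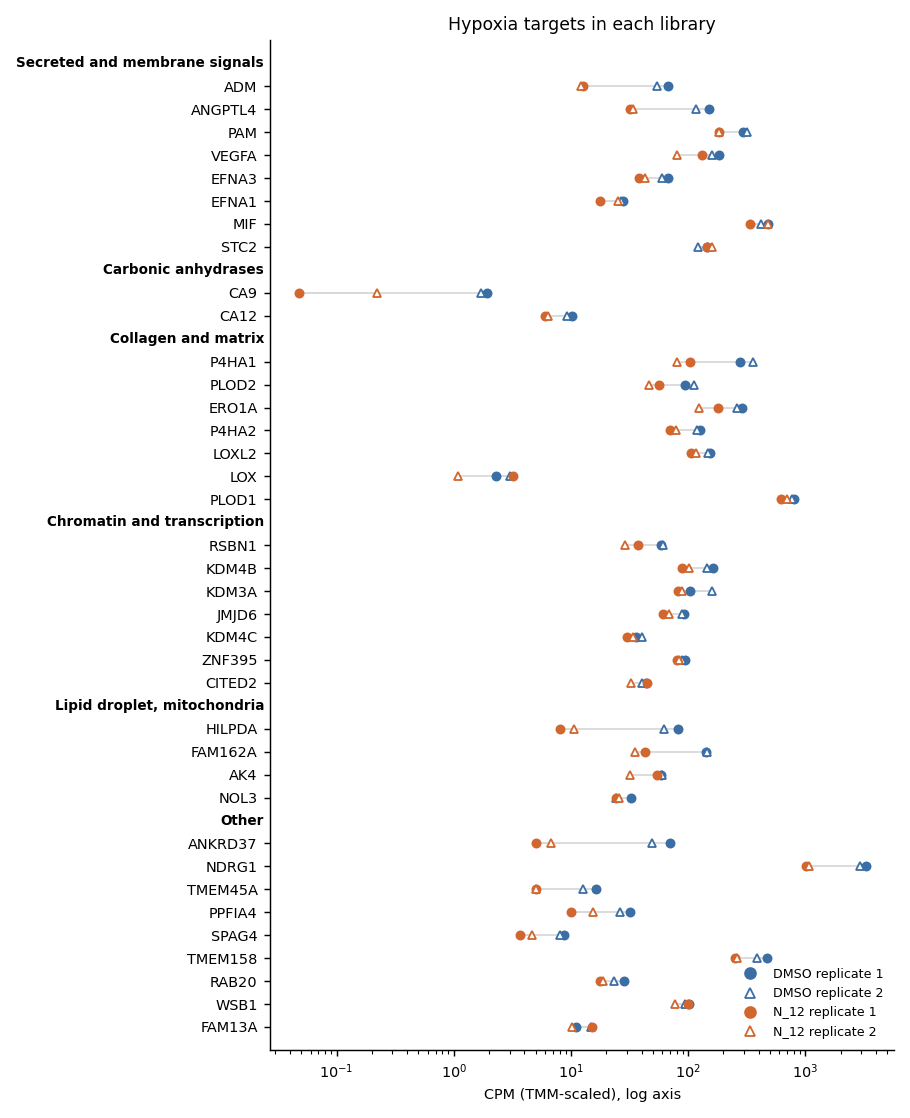
Level of each of the 37 genes in the 4 libraries, in CPM on a log axis, grouped by role and ordered within a role by fold change. Points are single libraries, blue for DMSO and orange for N_12, with filled circles for replicate 1 and open triangles for replicate 2. The N_12 points of ANKRD37, HILPDA, ADM and CA9 lie far to the left of the DMSO points, and those of STC2, MIF, WSB1 and FAM13A overlap them.

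**Figure D2:**
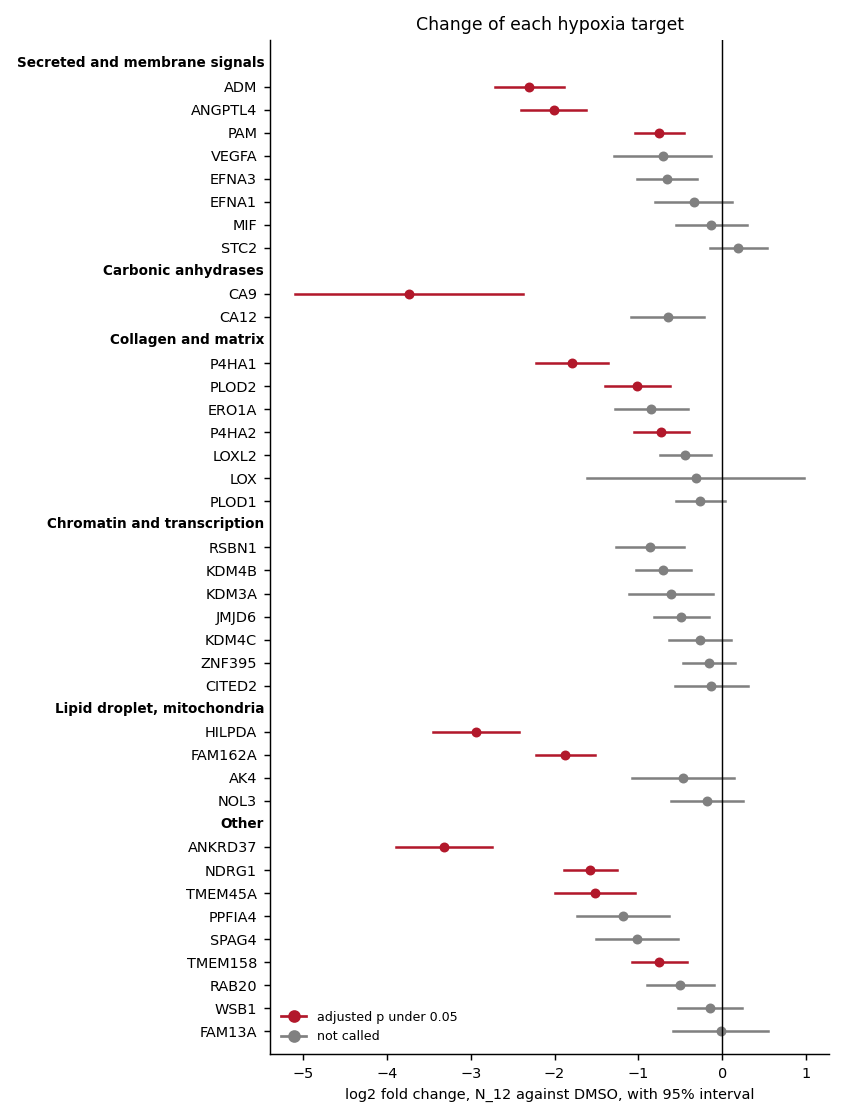
Log2 fold change of N_12 against DMSO for the same genes, with 95% intervals from edgeR's quasi-likelihood fit. Red marks the 13 genes called lower, and grey the 24 not called, of which 12 have an interval wholly below 0.

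Among secreted and membrane-bound signals, 3 of 8 genes were called lower and 0 higher. The median log2 fold change over all 8 was -0.68, and 7 of the 8 lay below 0. ADM, which encodes the vessel-widening peptide adrenomedullin, stood at 67.7 and 54.4 CPM in DMSO replicates 1 and 2 and at 12.6 and 12.2 CPM in N_12 replicates 1 and 2. The N_12 libraries were nearly equal and the groups did not overlap. It fell 4.92-fold (log2 fold change -2.30, SE 0.18, adjusted p = 0.00201). PAM, the enzyme that adds the terminal amide which adrenomedullin and other peptides need to be active, went from 294 and 320 CPM to 182 and 183 CPM (-0.75, SE 0.13, adjusted p = 0.0296). The transcripts of the peptide and of its processing enzyme were thus both lower, and the PAM call was lost on removal of DMSO replicate 1 (adjusted p = 0.0503) or DMSO replicate 2 (0.0739). ANGPTL4, a secreted inhibitor of lipoprotein lipase, had 149 and 116 CPM in DMSO and 31.9 and 34.0 CPM in N_12 (-2.01, SE 0.17, adjusted p = 0.00232).

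VEGFA, the main growth factor of new vessels, was not called. It had 184 and 160 CPM in DMSO and 130 and 80.5 CPM in N_12, so both N_12 libraries were lower but differed from each other 1.62-fold (log2 fold change -0.71, 95% interval -1.29 to -0.13, adjusted p = 0.165). Leaving out N_12 replicate 1 gave -1.11 and leaving out N_12 replicate 2 gave -0.41, and DESeq2 on all 4 libraries gave an adjusted p of 0.0437. The ephrin ligand EFNA3 had 67.0 and 59.9 CPM in DMSO and 38.03 and 42.6 CPM in N_12 (-0.65, adjusted p = 0.0732). EFNA1, another ephrin, had 27.9 and 26.5 against 17.8 and 25.1 CPM (-0.34, adjusted p = 0.349). Ephrins are membrane-anchored ligands of Eph receptors, and neither gene was called. Of EFNA3's exon bases 44.7% are shared on the same strand with the read-through gene EFNA4-EFNA3, which fell from 154 and 120 counts to 69 and 48 counts (-1.69, adjusted p = 0.0270), so the value of EFNA3 depends on how reads were divided.

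MIF, a cytokine with the highest level per kilobase of merged exon of the 37 genes in DMSO, did not separate the groups. Its libraries held 476 and 420 CPM in DMSO and 340 and 479 CPM in N_12, and the N_12 replicates spanned both DMSO values (-0.13, 95% interval -0.55 to 0.29). MIF shares 32.2% of its exon bases with an unnamed gene, which had 57 to 93 counts per library. STC2, a secreted glycoprotein that is also known to respond to stress of the endoplasmic reticulum, was the only member with a positive log2 fold change. It had 146 and 122 CPM in DMSO and 145 and 161 CPM in N_12 (0.19, 95% interval -0.15 to 0.53, adjusted p = 0.48). The DMSO and N_12 libraries of STC2 overlapped.

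Of the carbonic anhydrases, which hydrate CO2 at the cell surface and so acidify the medium around tumour cells, CA9 fell and CA12 was not called. CA9 is among the most HIF-dependent genes known, and it was scarce here: 59 and 50 counts in DMSO and 2 and 9 counts in N_12, or 1.93 and 1.70 CPM against 0.0475 and 0.221 CPM. Its fold change, 13.3, was the largest of the 37 (log2 -3.74, 95% interval -5.09 to -2.38, adjusted p = 0.0248). With so few counts the size was loose, moving from -3.04 without N_12 replicate 1 to -5.16 without N_12 replicate 2, and with limma-voom its adjusted p was 0.0517. DESeq2 gave CA9 no adjusted p. On the opposite strand 38.5% of its exon bases are exon bases of ARHGEF39, which had 497 to 708 counts per library and a log2 fold change of -0.10, and with the strand setting unstated their reads cannot be told apart. CA12 had 10.2 and 9.18 CPM in DMSO and 5.98 and 6.35 CPM in N_12, with no overlap (-0.65, 95% interval -1.09 to -0.21, adjusted p = 0.111).

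Genes that modify collagen and matrix held 3 called genes of 7, all lower. The median log2 fold change over all 7 was -0.72. P4HA1 encodes the catalytic alpha subunit of the prolyl hydroxylase that stabilises the collagen helix. It had 277 and 359 CPM in DMSO and 103 and 80.9 CPM in N_12, a 3.46-fold fall (-1.79, SE 0.18, adjusted p = 0.00624). P4HA2, an alternative alpha subunit of the same enzyme, had 127 and 118 CPM in DMSO and 69.3 and 79.1 CPM in N_12 (-0.72, SE 0.14, adjusted p = 0.0464). Per kilobase of merged exon, P4HA1 stood at 103 and P4HA2 at 14.4 CPM in DMSO, and at 29.7 and 8.73 CPM in N_12. The merged exons span 3.093 kb for P4HA1 and 8.502 kb for P4HA2, which widens this gap. Before scaling by length P4HA1 was also the higher in every library, though N_12 replicate 2 held 80.9 against 79.1 CPM. PLOD2, the lysyl hydroxylase of collagen ends that sets the type of cross-link, fell from 94.3 and 113 CPM to 56.3 and 46.6 CPM (-1.01, SE 0.17, adjusted p = 0.0270).

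The other 4 matrix genes were not called. PLOD1, a lysyl hydroxylase of the collagen helix, was the most abundant of the 7, with 799 and 776 CPM in DMSO and 621 and 693 CPM in N_12 (-0.26, 95% interval -0.56 to 0.03). ERO1A, the oxidase that drives disulfide formation in the endoplasmic reticulum, had 287 and 259 CPM in DMSO and 179 and 125 CPM in N_12 (-0.85, adjusted p = 0.0649). LOXL2, a secreted lysyl oxidase of the cross-linking step, had 153 and 149 against 106 and 116 CPM (-0.44, adjusted p = 0.116). For these 3 genes the groups did not overlap, N_12 being the lower. LOX, the founding lysyl oxidase, was scarce, with 70 and 89 counts in DMSO and 134 and 44 in N_12, so its groups overlapped (-0.32, 95% interval -1.61 to 0.98).

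Related genes were set side by side as the log2 ratio of their CPM in each library, which is not scaled by length and is read only as a difference between libraries. P4HA1 to P4HA2 had ratios of 1.121 and 1.61 in DMSO and 0.57 and 0.03 in N_12. PLOD2 to PLOD1 had -3.08 and -2.78 in DMSO and -3.46 and -3.89 in N_12. CA9 to CA12 had -2.40 and -2.43 in DMSO and -6.98 and -4.85 in N_12. In these 3 pairs, and for EFNA3 to EFNA1 and KDM4B to KDM4C, the ratio was lower in both N_12 libraries than in both DMSO libraries. The differences of the mean ratio, N_12 minus DMSO, were -1.06, -0.75, -3.50, -0.29 and -0.44 in that order, each with p = 0.333 in a two-sided exact permutation test, which is the smallest p that 2 against 2 libraries allow. LOXL2 to LOX overlapped between the groups (0.06, exact p = 1).

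**Figure D3:**
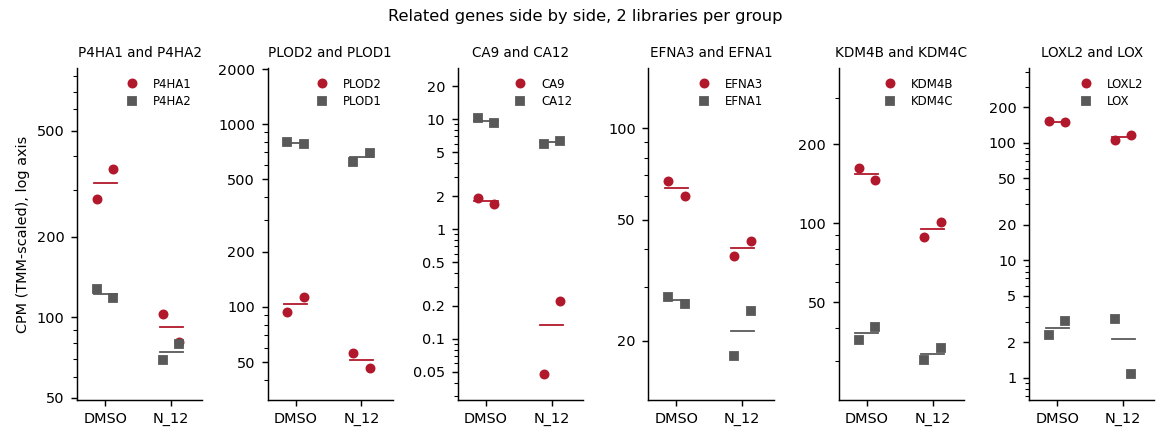
CPM of 6 pairs of related genes on log axes, 1 pair per panel, with a point for each library and a short line at the mean of each group. CPM is not scaled by length, so only changes between groups are read: P4HA1 and CA9 drop by more than P4HA2 and CA12, whereas the 2 N_12 libraries of LOX lie on either side of its DMSO libraries.

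None of the 7 chromatin oxygenases and transcriptional regulators was called, although all 7 lay below 0 (median -0.49) and 4 had an unadjusted p under 0.05, at which 10.8% of all tested genes were lower. KDM4B, a demethylase of histone H3 lysine 9 that needs oxygen for its reaction, had 163 and 146 CPM in DMSO and 88.7 and 101 CPM in N_12 (-0.70, 95% interval -1.03 to -0.38, adjusted p = 0.0505). RSBN1, also a member of the Jumonji family of demethylases, had 58.8 and 61.6 CPM against 37.4 and 28.9 CPM (-0.86, adjusted p = 0.0515). Both sat just outside the threshold, and scaling by RLE size factors, removing the filter on low counts or using a stricter one brought both inside it. KDM3A, a demethylase of the same histone residue, depended on 1 library: its DMSO replicates read 104 and 159 CPM and its N_12 replicates 82.7 and 89.3 CPM, and its log2 fold change of -0.61 (adjusted p = 0.162) became -0.89 without DMSO replicate 1, where it was called, and -0.27 without DMSO replicate 2.

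JMJD6, an oxygenase of lysine residues, had 92.6 and 88.4 CPM in DMSO and 61.2 and 68.0 CPM in N_12 (-0.49, adjusted p = 0.109). KDM4C, a close relative of KDM4B, had 35.9 and 40.4 against 30.1 and 33.5 CPM (-0.26, adjusted p = 0.377). ZNF395, a zinc finger factor, had 94.3 and 88.5 against 80.9 and 83.0 CPM (-0.16), and it shares 34.9% of its exon bases with FBXO16. CITED2, which competes with HIF alpha for the coactivators CREBBP and EP300, had 43.6 and 40.2 CPM in DMSO and 44.2 and 32.3 CPM in N_12 (-0.13, 95% interval -0.57 to 0.30). Of these 4, CITED2 alone overlapped between the groups.

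Of the 4 lipid droplet and mitochondrial proteins, 2 were called lower, and all 4 had a log2 fold change below 0. HILPDA, which sits on lipid droplets and holds back the lipase that empties them, had 81.6 and 61.9 CPM in DMSO and 8.05 and 10.7 CPM in N_12 (-2.94, SE 0.22, adjusted p = 0.00201). FAM162A, a mitochondrial protein tied to cell death under low oxygen, had 142 and 145 CPM in DMSO and 43.0 and 35.5 CPM in N_12 (-1.87, SE 0.15, adjusted p = 0.00201). Its DMSO libraries agreed within 1.02-fold and neither N_12 library reached a level near them. AK4, an adenylate kinase of the mitochondrial matrix, had 59.0 and 59.9 CPM in DMSO and 54.4 and 31.9 CPM in N_12, so the N_12 replicates differed 1.71-fold and the gene was not called (-0.46, 95% interval -1.07 to 0.15). NOL3, an inhibitor of apoptosis, had 32.7 and 24.3 against 24.3 and 25.9 CPM and overlapped (-0.18).

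The remaining members held 4 called genes of 9. ANKRD37, a small ankyrin-repeat protein whose transcript is a common marker of HIF activity, had 69.5 and 49.1 CPM in DMSO and 5.08 and 6.82 CPM in N_12 (-3.32, 95% interval -3.89 to -2.75, adjusted p = 0.00201). Its exons overlap those of UFSP2 on the opposite strand over 35.2% of their bases, and UFSP2 itself differed by -0.26 and was not called. NDRG1, a protein that is known to restrain metastasis of colon cancer cells and is strongly hypoxia-inducible, took the largest share of the reads of the 37. It had 3294 and 2935 CPM in DMSO and 1014 and 1081 CPM in N_12, a 2.97-fold fall (-1.57, SE 0.14, adjusted p = 0.00250). TMEM45A, a membrane protein, fell from 16.2 and 12.6 CPM to 5.01 and 5.05 CPM (-1.52, SE 0.20, adjusted p = 0.0162). TMEM158, a membrane protein first described as induced by RAS, had 469 and 388 CPM in DMSO and 250.02 and 260 CPM in N_12 (-0.75, SE 0.14, adjusted p = 0.0413).

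PPFIA4, a liprin scaffold protein, and SPAG4, a protein of the nuclear envelope, were more than 2-fold lower without being called. PPFIA4 had 31.7 and 26.3 CPM in DMSO and 10.0 and 15.5 CPM in N_12 (-1.18, adjusted p = 0.0526), and SPAG4 had 8.72 and 8.03 against 3.68 and 4.61 CPM (-1.01, adjusted p = 0.0542). RAB20, a small GTPase of endosomes, had 28.4 and 23.3 against 17.7 and 18.9 CPM (-0.50, adjusted p = 0.153). WSB1, a subunit of a ubiquitin ligase, had 103 and 93.6 against 101 and 76.7 CPM, and FAM13A had 11.02 and 14.7 against 15.1 and 10.3 CPM. For these last genes the groups overlapped, with log2 fold changes of -0.15 for WSB1 and -0.02 for FAM13A.

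Summed over the 37 genes, the level was 8104 and 7534 CPM in DMSO and 4018 and 4184 CPM in N_12. NDRG1 made up 39.8% of the mean DMSO sum and 25.5% of the mean N_12 sum, and it carried 55.6% of the difference between them. Levels per kilobase were taken over the merged exons of all annotated transcripts of a gene. These can be longer than the RNA present, so the order of genes on this scale depends on the annotation. By this measure MIF led in DMSO at 404 CPM per kilobase, followed by NDRG1 at 317, TMEM158 at 236, PLOD1 at 148 and P4HA1 at 103. In N_12 MIF stood at 369, TMEM158 at 141, PLOD1 at 124, NDRG1 at 107 and P4HA1 at 29.7 CPM per kilobase. On this scale NDRG1 thus moved below TMEM158 and PLOD1. Before scaling by length, the N_12 means of NDRG1, TMEM158 and PLOD1 were 1047, 255 and 657 CPM. Replicates of a group differed by more than 1.4-fold for 9 genes in N_12 (CA9, LOX, AK4, VEGFA, PPFIA4, FAM13A, ERO1A, EFNA1 and MIF) and for 2 in DMSO (KDM3A and ANKRD37). N_12 replicate 2 was the lower one in 12 of the 37, so neither N_12 library was lower throughout.

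Other hypoxia-induced genes outside glycolysis, a separate list of 40, were read for comparison. Of its 35 tested genes 10 were called lower (28.6%) and 0 higher, with a median of -0.32, 23 below 0 and 12 above. BNIP3, a receptor that sends mitochondria to autophagy, had 191 and 175 CPM in DMSO and 57.9 and 51.5 CPM in N_12 (-1.74, SE 0.14, adjusted p = 0.00201), and its relative BNIP3L fell by less (-0.80, adjusted p = 0.0366). INSIG2, which retains the sterol sensor in the endoplasmic reticulum, the immediate-early factor FOS and the chemokine receptor CXCR4 fell as well, with log2 fold changes of -1.52, -1.68 and -1.72. DDIT4, an inhibitor of mTORC1, the MYC antagonist MXI1 and the clock-related repressor BHLHE40 fell with log2 fold changes of -1.23, -0.94 and -0.82. Another 6 of the 35 were higher at an unadjusted p under 0.05 without being called, beside 11% of all tested genes, among them the ectonucleotidase NT5E (0.72, adjusted p = 0.0768) and haem oxygenase HMOX1 (0.61, adjusted p = 0.0920), both named after their values were seen. By the same fit 11 of 22 glycolytic enzymes and glucose transporters (50%) were called lower, with a median of -0.91 and 22 of 22 below 0. No test compared the lists with each other.

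**Figure D4:**
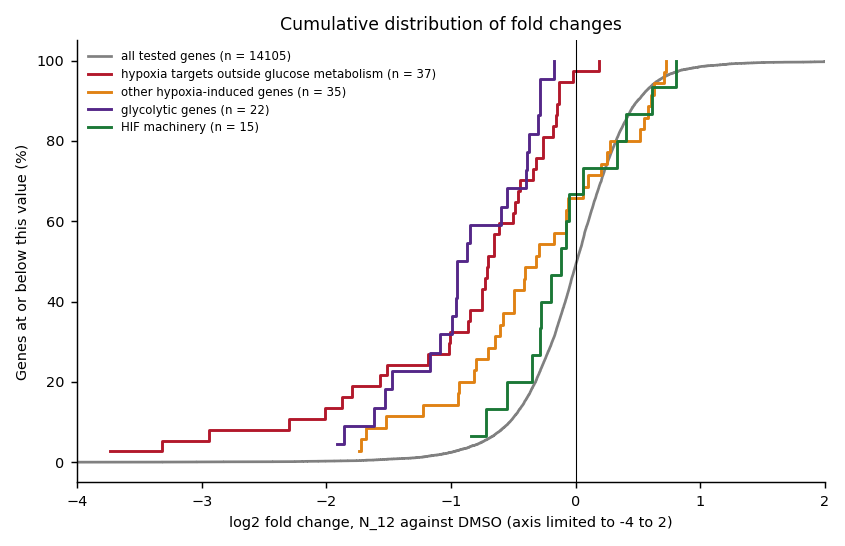
Cumulative share of genes, in percent, at or below each log2 fold change of N_12 against DMSO, for all 14105 tested genes and for 4 lists. The curve of the 37 hypoxia targets crosses 50% near its median of -0.70, that of all genes near 0.01, and that of the HIF machinery near -0.11.

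Of 15 tested genes of the HIF system itself (subunits, coactivators, oxygen sensors and parts of the degradation machinery), 1 was called lower (6.67%) and 0 higher. Over all tested genes the shares were 1.43% and 0.822%. The median log2 fold change of the 15 was -0.11. At an unadjusted p under 0.05, 3 of the 15 were lower and 3 higher, beside 10.8% and 11% of all tested genes. These included RBX1 (-0.55) and the coactivators CREBBP (0.61) and EP300 (0.40), which were not called. HIF1A had 116 and 180 CPM in DMSO and 284 and 234 CPM in N_12, both N_12 libraries being above both DMSO libraries (log2 fold change 0.81, 95% interval 0.26 to 1.36, adjusted p = 0.121). DESeq2 called it higher (adjusted p = 0.0161). Its DMSO libraries differed, and the log2 fold change was 1.16 against DMSO replicate 1 alone (adjusted p = 0.0122) and 0.53 against DMSO replicate 2 alone (adjusted p = 0.319), where the lone library is assumed to vary like the N_12 pair. The other alpha subunit, EPAS1, had 176 and 176 CPM against 147 and 142 CPM (-0.28, adjusted p = 0.246). ARNT differed by -0.05 (95% interval -0.40 to 0.30), VHL by -0.11 (-0.44 to 0.21) and the asparagine hydroxylase HIF1AN by 0.06 (-0.24 to 0.36), all with overlapping groups. Of the prolyl hydroxylases, EGLN1, itself a HIF target, was the gene called lower (-0.84, adjusted p = 0.0413), from 120 and 107 CPM to 70.0 and 56.9 CPM. EGLN3, another target, had 8.43 and 11.3 against 6.55 and 5.37 CPM (-0.72, adjusted p = 0.128), and EGLN2 differed by -0.35 with overlapping groups. EGLN1 was no longer called with DMSO replicate 1 removed (adjusted p = 0.123), with either N_12 library removed (0.131 and 0.166) or with limma-voom (0.0730). mRNA levels do not show how much HIF protein was present, which was not measured.

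**Figure D5:**
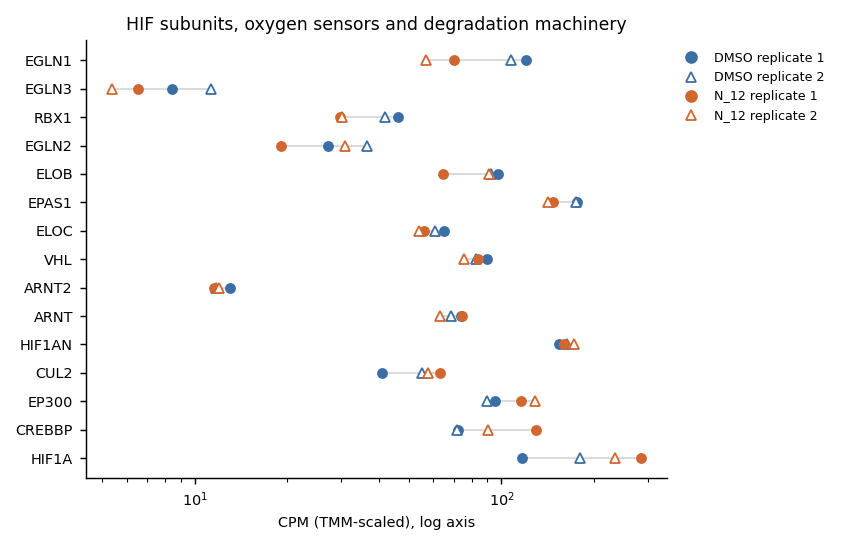
CPM of the 15 tested genes of the HIF system in each library on a log axis, ordered by fold change, with the same symbols as the plot of the 37 genes by library. HIF1A lies higher in both N_12 libraries (284 and 234 CPM) than in DMSO (116 and 180 CPM), and EGLN1 lies lower.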

How the data were processed

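The authors deposited 1 table of whole-number counts per human Ensembl gene for 4 libraries, with no normalization and replicates kept apart. The aligner, the counting tool and whether strand was used: not given in the sources used here. GRCm38 and mm10, both mouse builds, appear in the submitters' processing notes although the identifiers are human, so printed coordinates are those of RefSeq's promoter table, and exon lengths and overlaps those of GENCODE 29. Groups come from the sample titles. Symbols were found for 20148 of 20263 identifiers. Counts were fitted in R 4.3.3 with edgeR 4.0.16 (TMM factors 0.98 to 1.02, filterByExpr, robust quasi-likelihood F test, no replicate term). Two-sided p-values were adjusted over the 14105 tested genes by the Benjamini-Hochberg method and called at 0.05. SE and 95% intervals come from the F statistic, mean CPM from TMM-scaled totals, and lengths from merged exons. On simulated data with known changes the fit recovered most large changes and few of the smallest, and the share of false calls was above the level the threshold is meant to keep. Counts of replicates differed beyond sampling noise (chi-square divided by its degrees of freedom was 36.5 in DMSO and 57.2 in N_12), so all 4 libraries were counted. Alternatives were other scalings and filters, limma-voom 3.58.1, DESeq2 1.42.0, non-robust dispersions, a replicate term and leaving out each library. The genes, lists and tests were chosen with earlier results of these data known. Values by library were to be given for called members, the most abundant uncalled member of each role and pairs of related genes; further members are shown too. Of the other list, up to 8 called genes with the smallest p were to be named.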

Additional observations from a re-analysis of the deposited data

How the results depend on the processing

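In every planned setting 0 of the 37 hypoxia targets were called higher. Their median log2 fold change lay between -0.73 and -0.60, and between 32 and 36 were below 0. The median over all genes moved by less than 0.1 under each scaling. With DESeq2, 1192 genes, 21 targets (lower) and 4 genes of the HIF system were called, against 317, 13 and 1. With limma-voom these were 131, 8 and 0, and with non-robust dispersions 131, 8 and 0, where CA9, P4HA2, PAM, PLOD2 and TMEM158 lost their calls in both; the other hypoxia genes called lower were then 5 and 4 against 10. Scaling by total counts alone ended the calls of P4HA2 and TMEM158. Deviations of same-numbered libraries had a correlation of -0.09 across genes. Each group gives only a single difference between its libraries, so this value cannot show whether same-numbered libraries were paired. A replicate block gave 963 called genes, 19 targets called lower and 2 genes of the HIF system, with 13 of 13 calls kept. Leaving out 1 library gave 0 to 451 called genes by edgeR, 0 to 12 targets called lower, 0 to 8 other hypoxia genes called lower and 0 to 2 genes of the HIF system. The counts of 0 arose without N_12 replicate 1 or 2, with 2855 and 2763 genes at unadjusted p under 0.05; the cause was not tested. Fits chosen after seeing the data, on the same sets of 3 libraries, gave 0 to 175 genes and 0 to 9 targets by limma-voom (108 and 7 without DMSO replicate 1, 175 without DMSO replicate 2) and 265 to 559 genes and 10 to 16 targets by DESeq2 (546 genes without DMSO replicate 2, 559 and 554 without N_12 replicates 1 and 2). Signs changed for uncalled genes only. Leaving out 1 library gave log2 fold changes from -0.400 to 0.0805 for MIF, -1.32 to 0.252 for LOX, -0.391 to 0.0731 for CITED2, -0.380 to 0.0484 for NOL3, -0.370 to 0.0337 for WSB1, -0.341 to 0.223 for FAM13A (0.203 without DMSO replicate 2) and -0.188 to 0.0581 for ARNT (0.0080 without DMSO replicate 1). Total counts alone gave 0.0245 for FAM13A. Using only the 250 bases before the start, 25 of 28 genes kept a match to ACGTG or GCGTG, against 47.4% of all genes with a listed promoter.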

Other observations

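STC1, the relative of STC2, was too scarce for a test and was named after its values were seen. It had 8 and 22 counts in DMSO and 0 and 0 counts in N_12, whereas STC2, at a log2 fold change of 0.19, was not called. Across the 37 tested hypoxia targets, the DMSO level per kilobase of exon had a Spearman correlation of -0.17 with the log2 fold change, a description across genes that share the same 4 libraries.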
